A study of Rattus norvegicus with 15 samples.

Results

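The gut hormone and granin genes are Gcg, Gip, Cck, Sct, Nts, Pyy, Sst, Ghrl, Chga and Chgb, 10 genes found by their names on the array among the 13023 genes tested, and carried by 14 probes. Levels were measured in a segment of small intestine from 15 male rats, 5 in each of 3 groups, with 1 array for each rat. The Wistar group held non-diabetic rats with no operation. GK-Sham-PF rats were Goto-Kakizaki (GK) rats, an inbred line derived from Wistar that is diabetic without being obese, and they had been sham-operated and pair-fed. In that sham operation the intestine was cut 16 cm from the ligament of Treitz and rejoined side to side. GK-S-30 rats were GK rats with a Roux-en-Y gastric bypass (RYGB), in which food leaves a small stomach pouch straight into a Roux limb (RL), here 30 cm long, that carries no bile until it meets the other limb. Operations were done at 16 wk of age and tissue was taken 14 wk later, after an overnight fast, from the part of the RL near the stomach and from the corresponding segment in the other groups. Food for the pair-fed rats was set to the lowest mean intake among the study's bypass groups. This was usually that of a group with a shorter RL, not that of GK-S-30 rats. GK-Sham-PF and Wistar rats differed in strain, operation and feeding at once, and these cannot be told apart.

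Enteroendocrine cells are scattered singly through the intestinal epithelium, sense the contents of the lumen and release peptide hormones from granules into the blood. Secretin (Sct) from S cells calls out bicarbonate from the pancreas, cholecystokinin (Cck) is made by I cells, and the incretin Gip from K cells raises insulin release. Gcg encodes proglucagon, from which L cells cut GLP-1 and GLP-2, Pyy encodes peptide YY, which slows transit and appetite, and Nts encodes neurotensin. Somatostatin (Sst) from D cells restrains other endocrine cells, ghrelin (Ghrl) is a hunger hormone made mostly in the stomach, and the granins chromogranin A (Chga) and chromogranin B (Chgb) help to build the granules. The comparison of GK-S-30 with GK-Sham-PF rats asks what the bypass does to these genes, and the comparison of GK-Sham-PF with Wistar rats asks how the operated diabetic controls differ from non-diabetic rats.

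Levels are log2 values of the processed Agilent signal after quantile normalization, so that a difference of 1 is a doubling, and a level of one gene cannot be set against that of another because probes differ in brightness. All 14 probes were well above background on all 15 arrays and none was saturated. The arrays lay on 4 slides, and no slide held all 3 groups. On slide A were Wistar replicates 2 to 5, and on slide D were GK-S-30 replicates 3 to 5. Wistar replicate 1 shared slide B with GK-Sham-PF replicates 1 to 3, and GK-Sham-PF replicates 4 and 5 shared slide C with GK-S-30 replicates 1 and 2. GK-Sham-PF replicate 5 and Wistar replicate 3 were the dimmest arrays, with a 75th percentile of raw signal of 208 and 207 against 302 to 357 in the others. All 10 epithelial markers and all 6 proximal intestine markers on the array were well above background on all 15 arrays. So were 6 of 8 distal intestine markers and all 8 smooth muscle markers, so that detection alone does not place the segment along the intestine.

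The upstream promoter sequences of 4 members are shown, for a pair whose levels were higher in the GK-S-30 than in the GK-Sham-PF group (Gcg and Chgb) and for a pair whose levels were lower in the GK-S-30 group than in Wistar rats (Ghrl and Pyy). RefSeq held a promoter for 7 of the 10 members, and each sequence gives the 250 bases before the annotated start, 5′ to 3′ along the gene. Capitals mark matches on either strand to the E-box CANNTG, which basic helix-loop-helix factors such as Neurog3 and Neurod1 bind, to the cAMP response element TGACGTCA and its half-site TGACG, to the GC box GGGCGG or to the TATA motif TATAAA.
Gcg, GRCr8 chr3:67531534-67531783, minus strand: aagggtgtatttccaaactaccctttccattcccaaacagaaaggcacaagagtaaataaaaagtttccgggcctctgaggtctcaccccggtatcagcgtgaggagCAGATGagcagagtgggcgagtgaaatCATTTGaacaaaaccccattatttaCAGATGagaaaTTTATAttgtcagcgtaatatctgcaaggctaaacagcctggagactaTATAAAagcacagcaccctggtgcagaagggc
Chgb, GRCr8 chr3:140496462-140496711, plus strand: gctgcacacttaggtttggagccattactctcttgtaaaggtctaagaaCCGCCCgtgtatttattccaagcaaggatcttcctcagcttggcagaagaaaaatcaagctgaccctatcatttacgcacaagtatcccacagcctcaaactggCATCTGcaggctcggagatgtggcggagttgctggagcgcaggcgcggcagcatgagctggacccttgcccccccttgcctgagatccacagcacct
Ghrl, GRCr8 chr4:148425225-148425474, minus strand: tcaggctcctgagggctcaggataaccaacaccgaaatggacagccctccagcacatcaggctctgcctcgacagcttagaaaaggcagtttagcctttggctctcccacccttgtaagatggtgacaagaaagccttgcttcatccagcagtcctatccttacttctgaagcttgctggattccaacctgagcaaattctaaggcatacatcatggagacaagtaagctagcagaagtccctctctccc
Pyy, GRCr8 chr10:87562471-87562720, minus strand: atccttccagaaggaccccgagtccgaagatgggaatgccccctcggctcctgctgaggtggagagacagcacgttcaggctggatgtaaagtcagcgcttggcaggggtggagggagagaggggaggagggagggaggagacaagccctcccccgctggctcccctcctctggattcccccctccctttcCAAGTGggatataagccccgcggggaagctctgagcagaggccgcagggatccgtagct
The Gcg promoter held 3 E-boxes, beginning 143, 116 and 91 bases before the start, and 2 TATA matches, at 80 and 32 bases. Chgb held 1 E-box at 97 bases and 1 GC box at 201 bases, Pyy held 1 E-box at 59 bases, and Ghrl held no match to any of the searched letters in this window. An E-box was in 65.2% of all 27457 RefSeq rat promoters of this length, a GC box in 32.4% and a TATA motif in 13.1%, so that a match or its absence describes the sequence and nothing more.

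Against GK-Sham-PF rats, the RL of GK-S-30 rats had higher levels of 4 of the 10 genes and lower levels of none at a limma adjusted p under 0.05. These were Sct, Cck, Gcg and Chgb, with differences between 0.38 and 0.90, and among all tested genes 9.65% passed the same test, with 5.16% of all tested genes higher and 4.49% lower. The median difference was 0.27 over the 10 genes and -0.03 over all tested genes. Between GK-Sham-PF and Wistar rats 1 of the 10 passed, Ghrl, which was lower, beside 8.83% of all genes (4.2% higher and 4.63% lower). No member was without overlap between these groups, beside 9.69% of all genes. Between GK-S-30 and Wistar rats 5 of the 10 passed, with Sct and Chga higher and Sst, Ghrl and Pyy lower, beside 26.2% of all genes (12.4% higher and 13.8% lower). GK-Sham-PF rats and the GK-S-30 group are each used in 2 of these comparisons, as are Wistar rats, so the comparisons are not independent.

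**Figure D1:**
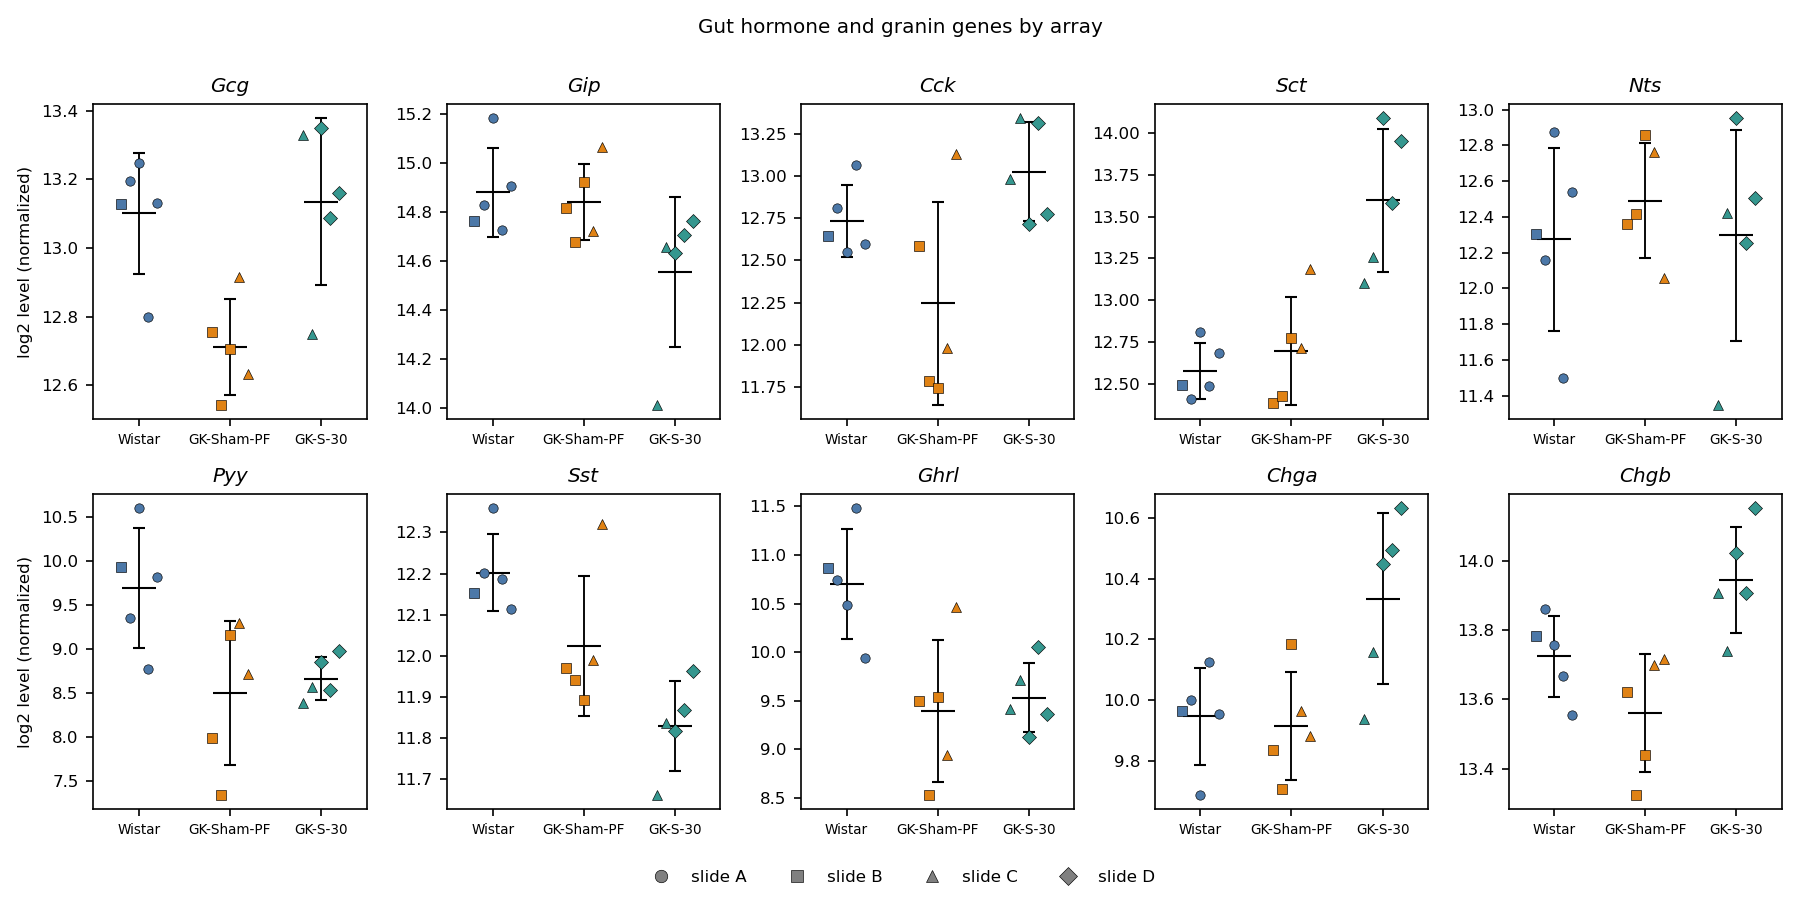
The normalized log2 level of each of the 10 genes is plotted for each array, with the 3 groups side by side, symbols for the 4 slides, a bar at the mean and whiskers of 1 SD (n = 5 each), on a separate axis range for each gene. Sct, Chga and Chgb are highest in GK-S-30 rats, Ghrl and Pyy are highest in Wistar rats, and the Sct, Chga and Chgb means of slide D lie above those of the 2 GK-S-30 arrays on slide C.

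Sct had the largest difference of the 10 genes between GK-S-30 rats and the GK-Sham-PF group. For replicates 1 to 5 in order, Sct read 12.49, 12.41, 12.81, 12.49 and 12.68 in Wistar rats, 12.39, 12.43, 12.77, 12.71 and 13.19 in GK-Sham-PF rats, and 13.10, 13.26, 14.09, 13.58 and 13.95 in GK-S-30 rats. Every GK-S-30 array lay above every Wistar array, which was so for Sct alone among the 10 genes and for 1 more, Sst, in the other direction, beside 19.5% of all tested genes. Of the 5, 1 lay below the highest GK-Sham-PF array. The level was higher than in GK-Sham-PF rats by 0.90 ± 0.19 (SE), or 1.87-fold (limma adjusted p = 0.0092), and higher than in Wistar rats by 1.02 ± 0.19, or 2.03-fold (adjusted p = 0.0012). GK-Sham-PF and Wistar rats did not differ beyond their spread (0.12, 95% interval -0.29 to 0.53). Both calls held when each array in turn was left out, with a difference from GK-Sham-PF rats of 0.78 to 1.02. Within slide C, however, the 2 GK-S-30 arrays exceeded the 2 GK-Sham-PF arrays by 0.23, with the dim replicate 5 the higher of the latter (13.19). The 3 highest GK-S-30 values were those of slide D.

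Cck, whose product is released when fat and protein reach the upper small intestine, was higher in the GK-S-30 than in the GK-Sham-PF group by 0.78 ± 0.24 (SE), or 1.72-fold, at an adjusted p of 0.049, close to the threshold. Cck read 12.64, 12.81, 12.55, 13.07 and 12.60 in Wistar rats, 12.58, 11.78, 11.74, 11.98 and 13.13 in GK-Sham-PF rats, and 12.98, 13.34, 12.71, 13.31 and 12.77 in GK-S-30 rats. The GK-Sham-PF rats were the most scattered (SD 0.60), with 4 arrays below every GK-S-30 array and replicate 5, a dim array, above 3 of the GK-S-30 arrays. The call held in 1 of the 15 fits that each left out an array, namely the fit without GK-Sham-PF replicate 5, where the difference was 1.00 (adjusted p = 0.0050). GK-S-30 and Wistar rats differed by 0.29 (95% interval -0.21 to 0.79), and GK-Sham-PF rats lay 0.49 below Wistar rats (95% interval of the difference -0.99 to 0.01, adjusted p = 0.26). Within slide C the GK-S-30 arrays exceeded the GK-Sham-PF arrays by 0.61.

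Gip showed no call in any comparison. It read 14.76, 14.83, 15.18, 14.73 and 14.91 in Wistar rats, 14.81, 14.68, 14.92, 14.72 and 15.07 in GK-Sham-PF rats, and 14.02, 14.66, 14.63, 14.71 and 14.76 in GK-S-30 rats. The GK-S-30 arrays were the lowest as a group, and replicate 1 lay apart below the other 4. The difference of GK-S-30 from GK-Sham-PF rats was -0.28 (95% interval -0.58 to 0.01, adjusted p = 0.23), and without GK-S-30 replicate 1 it was -0.15. Against Wistar rats it was -0.33 (95% interval -0.62 to -0.03, adjusted p = 0.10).

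Of the 3 genes typical of L cells and their neighbours, Gcg was higher after RYGB. Gcg read 13.13, 13.19, 13.25, 12.80 and 13.13 in Wistar rats, 12.75, 12.54, 12.71, 12.92 and 12.63 in GK-Sham-PF rats, and 13.33, 12.75, 13.35, 13.09 and 13.16 in GK-S-30 rats. The GK-Sham-PF arrays were the low group. Of the GK-S-30 arrays 4 lay above every GK-Sham-PF array, and replicate 2 lay below every Wistar array and below 2 of the GK-Sham-PF arrays. GK-S-30 rats exceeded GK-Sham-PF rats by 0.42 ± 0.12 (SE), or 1.34-fold (adjusted p = 0.041), a call that held in 4 of the 15 fits that each left out an array, and by 0.26 within slide C. GK-Sham-PF rats lay below Wistar rats by a difference of -0.39 that did not pass (adjusted p = 0.064), and was -0.46 within slide B. GK-S-30 and Wistar rats differed by 0.03 (95% interval -0.23 to 0.30).

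Pyy had a lower mean in both GK groups than in Wistar rats. It read 9.93, 9.35, 10.60, 8.77 and 9.82 in Wistar rats, 7.98, 7.34, 9.15, 9.30 and 8.71 in GK-Sham-PF rats, and 8.38, 8.56, 8.86, 8.53 and 8.98 in GK-S-30 rats. Wistar replicate 4 overlapped with both GK groups, and the GK-S-30 arrays were the tightest (SD 0.25). The level in GK-S-30 rats was lower than in Wistar rats by a log2 difference of -1.03 ± 0.36 (SE), or 2.05-fold (adjusted p = 0.047), and this call held in 4 of the 15 fits that each left out an array. The difference of GK-Sham-PF from Wistar rats was -1.20 ± 0.36 and missed the threshold (adjusted p = 0.054). GK-S-30 rats and the GK-Sham-PF group differed by 0.16 (95% interval -0.61 to 0.94), with -0.54 within slide C.

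Nts had no call. It read 12.30, 12.16, 12.88, 11.50 and 12.54 in Wistar rats, 12.36, 12.42, 12.86, 12.76 and 12.06 in GK-Sham-PF rats, and 11.35, 12.42, 12.95, 12.26 and 12.50 in GK-S-30 rats. The 3 groups overlapped throughout. Intervals of 95% ran from -0.79 to 0.41 for GK-S-30 minus GK-Sham-PF rats and from -0.58 to 0.62 for GK-S-30 minus Wistar rats. Changes within these intervals were not excluded.

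Ghrl, which encodes ghrelin, was lower in both GK groups than in Wistar rats. Ghrl read 10.87, 10.74, 10.48, 11.48 and 9.94 in Wistar rats, 9.50, 8.53, 9.54, 8.94 and 10.47 in GK-Sham-PF rats, and 9.41, 9.71, 9.13, 10.06 and 9.36 in GK-S-30 rats. The arrays at which the groups overlapped were replicate 5 of the Wistar group, replicate 5 of the GK-Sham-PF group and replicate 4 of the GK-S-30 group. In GK-Sham-PF rats the level was 2.47-fold lower than in Wistar rats (log2 difference -1.31 ± 0.33 SE, adjusted p = 0.020), and in GK-S-30 rats it was 2.25-fold lower (-1.17 ± 0.33, adjusted p = 0.016). The call in GK-S-30 rats held when each array in turn was left out. That in GK-Sham-PF rats held in 12 of 15 such fits and was lost without Wistar replicate 4, GK-Sham-PF replicate 2 or GK-Sham-PF replicate 4, with an adjusted p of 0.058 at most. On slide B, the 3 GK-Sham-PF arrays lay below the single Wistar array by a difference of -1.67. GK-S-30 rats and the GK-Sham-PF group differed by 0.14 (95% interval -0.56 to 0.84).

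Sst was lower in GK-S-30 than in Wistar rats. It read 12.15, 12.20, 12.36, 12.19 and 12.11 in Wistar rats, 11.97, 11.94, 11.89, 11.99 and 12.32 in GK-Sham-PF rats, and 11.66, 11.84, 11.82, 11.87 and 11.96 in GK-S-30 rats. No GK-S-30 array reached the lowest Wistar array. GK-Sham-PF arrays overlapped with both groups, and their replicate 5, a dim array, was near the highest Wistar array. The difference of GK-S-30 from Wistar rats was -0.37 ± 0.09 (SE), or 1.29-fold lower (adjusted p = 0.0086), and the call held when each array in turn was left out. The differences of GK-S-30 from GK-Sham-PF rats (-0.19, adjusted p = 0.22) and of GK-Sham-PF from Wistar rats (-0.18, adjusted p = 0.30) did not pass. Within slide C the GK-S-30 arrays lay below the GK-Sham-PF arrays by a difference of -0.41.

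Both granins had their highest group mean in GK-S-30 rats. Chgb read 13.78, 13.86, 13.76, 13.67 and 13.56 in Wistar rats, 13.62, 13.33, 13.44, 13.70 and 13.72 in GK-Sham-PF rats, and 13.91, 13.74, 14.02, 13.91 and 14.15 in GK-S-30 rats. Every GK-S-30 array lay above every GK-Sham-PF array, and Chgb was the 1 member of the 10 without overlap between these groups, beside 9% of all tested genes. The difference was 0.38 ± 0.10 (SE), or 1.31-fold (adjusted p = 0.028), it held in 11 of the 15 fits that each left out an array, and within slide C it was 0.11. Chgb in GK-S-30 and Wistar rats differed by 0.22 (adjusted p = 0.13).

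Chga read 9.96, 10.00, 9.69, 10.13 and 9.96 in Wistar rats, 9.84, 9.71, 10.19, 9.97 and 9.88 in GK-Sham-PF rats, and 9.94, 10.16, 10.45, 10.49 and 10.63 in GK-S-30 rats. The 3 GK-S-30 arrays of slide D were the highest of all 15, and the other 2 lay within the range of the GK-Sham-PF arrays. The difference from Wistar rats was 0.39 ± 0.13 (SE), or 1.31-fold (adjusted p = 0.044), and held in 6 of the 15 fits that each left out an array. That from GK-Sham-PF rats was 0.42 ± 0.13 and did not pass (adjusted p = 0.062), with 0.13 within slide C. GK-Sham-PF and Wistar rats differed by -0.03 (95% interval -0.32 to 0.25).

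**Figure D2:**
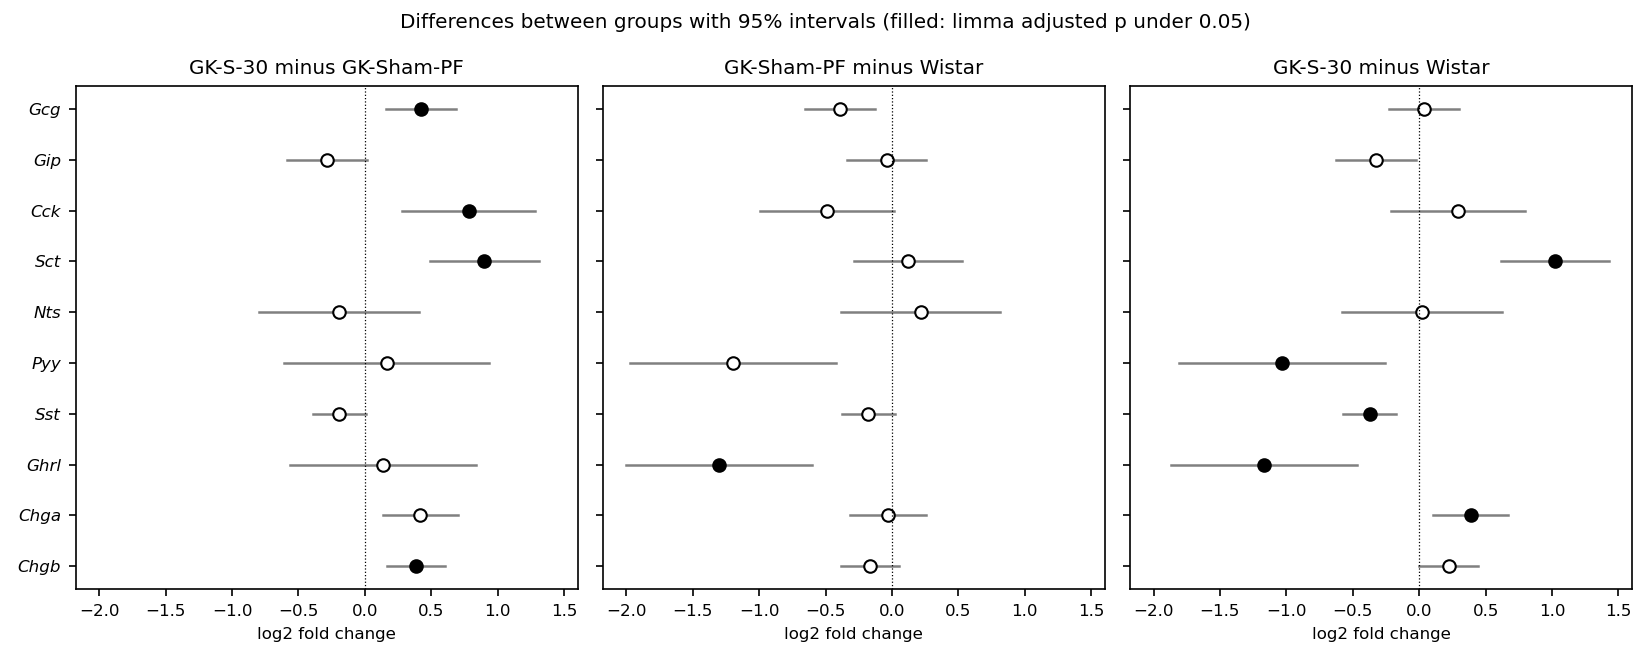
Differences of group means on the log2 scale are plotted as points for the 10 genes in each of the 3 comparisons, with lines for 95% intervals from limma and filled points where the adjusted p was under 0.05. The filled points are Sct, Cck, Gcg and Chgb for GK-S-30 minus GK-Sham-PF, Ghrl for GK-Sham-PF minus Wistar, and Sct, Chga, Sst, Ghrl and Pyy for GK-S-30 minus Wistar.

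When slide entered the fit as a fixed block, none of the 10 genes passed in limma in any of the 3 comparisons (2 genes in each had an unadjusted p under 0.05), and over all tested genes 285, 179 and 237 passed for GK-S-30 rats against the GK-Sham-PF group, GK-Sham-PF against Wistar and GK-S-30 against Wistar. Such a fit rests on the 4 arrays of slide C for the first comparison and on the 4 of slide B for the second, and GK-S-30 and Wistar rats shared no slide. With slide as a random block, the 10 genes gave 5, 3 and 5 calls. The part of slide in these results was not tested beyond this. Within slide C, 4 genes with a call against GK-Sham-PF rats kept their direction, with differences from 0.11 to 0.61, while Pyy and Ghrl, which had no call there, lay on the other side of 0. All slide C differences include GK-Sham-PF replicate 5, a dim array. For Ghrl, replicate 5 (10.47) lay above both GK-S-30 arrays of that slide (9.41 and 9.71) and replicate 4 (8.94) below both. For Pyy, both GK-Sham-PF arrays (9.30 and 8.71) lay above both GK-S-30 arrays (8.38 and 8.56).

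**Figure D3:**
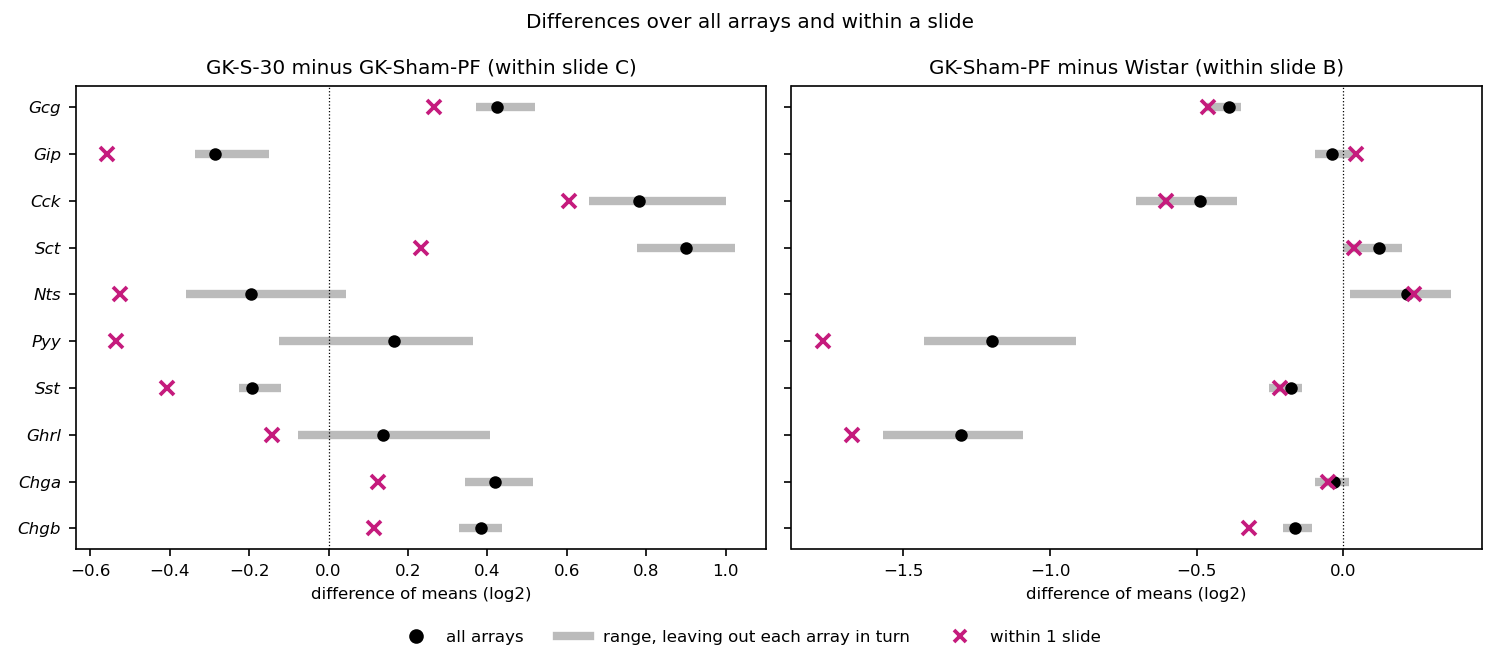
For each gene, the dot is the log2 difference of means over all arrays, the grey bar spans the differences when each array in turn was left out, and the cross is the difference within the 1 slide that held both groups (slide C with 2 and 2 arrays, slide B with 3 and 1). For GK-S-30 minus GK-Sham-PF, the crosses of Sct, Chga and Chgb lie nearer to 0 than the dots, at 0.23, 0.13 and 0.11, and for GK-Sham-PF minus Wistar, the crosses of Ghrl and Pyy lie farther from 0, at -1.67 and -1.77. The slide C crosses include the dim array GK-Sham-PF replicate 5.

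Gcg, Gip, Nts and Chga each had a second probe, and the brighter of the 2 gave the values above. The second Gcg probe differed between GK-S-30 rats and the GK-Sham-PF group by 0.64 (adjusted p over probes 0.081), the second Chga probe by 0.31 (0.20), the second Gip probe by -0.14 (0.63) and the second Nts probe by -0.20 (0.76). They had the direction of the first probes, and none passed. Against Wistar rats the second Gcg probe gave a larger difference for GK-S-30 rats (0.43, adjusted p = 0.16) than the first did (0.03), so the 2 Gcg probes disagreed on whether GK-S-30 rats stood at the Wistar level. Cck, Ghrl and Sst had 10 spots each on every array, with a median SD between spots of 0.047, 0.045 and 0.050, below the SD between rats in each group. The main probes of Sct and Ghrl lie at rn4 chr1:201472177-201472236 and chr4:149623700-149625652, both on the minus strand, and that of Chgb at chr3:120584804-120584863 on the plus strand. The Ghrl probe is aligned over 1953 bases of genome, more than its own length.

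Of 17 genes of granule make-up, prohormone processing and release, all measured on every array, 4 had higher and 1 had lower levels in the GK-S-30 than in the GK-Sham-PF group, and 12 did not pass. Among all tested genes 5.16% were higher and 4.49% lower in that comparison. Mboat4, the acyltransferase that puts the fatty acid on ghrelin, read 5.28, 5.43, 4.70, 5.60 and 5.01 in Wistar rats, 5.29, 5.20, 5.31, 5.09 and 5.45 in GK-Sham-PF rats, and 6.66, 6.57, 6.38, 6.70 and 6.51 in GK-S-30 rats. No GK-S-30 array came near either other group, whereas Ghrl itself was low in both GK groups. The difference from GK-Sham-PF rats was 1.29 ± 0.14 (SE), or 2.45-fold (adjusted p = 9.8e-05). It was 1.34 within slide C, and with slide as a fixed block it still passed (adjusted p = 0.019), the 1 call of the 5 in this list to do so. Vgf, a granin-like precursor, read 6.40, 6.35, 7.68, 6.43 and 6.37 in Wistar rats, 6.44, 6.60, 6.71, 6.79 and 6.07 in GK-Sham-PF rats, and 8.43, 7.69, 8.05, 8.39 and 8.56 in GK-S-30 rats. All GK-S-30 arrays were above all others, with a difference from GK-Sham-PF rats of 1.71 ± 0.25 (3.26-fold, adjusted p = 0.00064) and of 1.64 within slide C, and with slide as a fixed block it did not pass (adjusted p = 0.065).

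The granule membrane protein gene Ptprn (1.50, adjusted p = 0.040) and Pam, whose product amidates peptide hormones including secretin, cholecystokinin and peptide YY (0.70, adjusted p = 0.015), were also higher than in GK-Sham-PF rats, without overlap. Scg5, a chaperone of prohormone convertase 2, was the 1 lower gene (-0.41, adjusted p = 0.049), and was named after its value was seen. Ptprn (adjusted p = 0.25), Pam (0.099) and Scg5 (0.098) did not pass with slide as a fixed block. Against Wistar rats the GK-S-30 group had 6 of the 17 higher and 2 lower, beside 12.4% and 13.8% of all tested genes. The largest of the lower was Ptprn2 (-0.91, adjusted p = 0.0055). None of the 8 passed in limma with slide as a fixed block (6 of the 17 genes at an unadjusted p under 0.05). None of the 17 passed between the GK-Sham-PF group and Wistar rats by limma, where 2 had an unadjusted p under 0.05 by limma and 2 by the Tukey comparison. The median difference of the list was 0.14 between GK-S-30 rats and the GK-Sham-PF group, beside -0.03 over all genes.

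Serotonin is the product of enterochromaffin cells, a further endocrine cell of the gut. Of its 6 pathway genes 3 were lower in GK-Sham-PF than in Wistar rats, 3 were higher in the GK-S-30 than in the GK-Sham-PF group, and none passed in limma between GK-S-30 and Wistar rats (1 at an unadjusted p under 0.05, 0 by the Tukey comparison). Tph1, the rate-limiting enzyme, read 9.93, 10.37, 9.68, 9.92 and 9.65 in Wistar rats, 9.54, 9.42, 9.40, 9.42 and 9.46 in GK-Sham-PF rats, and 10.12, 9.73, 10.08, 9.90 and 10.07 in GK-S-30 rats. The GK-Sham-PF arrays lay below all 10 others. Tph1 was higher in the GK-S-30 than in the GK-Sham-PF group by 0.53 (adjusted p = 0.016) and the difference of GK-Sham-PF from Wistar rats was -0.46 (adjusted p = 0.032), which became 0.04 with the dimmest probe of the gene. Maoa, which breaks serotonin down, had differences of 0.78 (adjusted p = 0.0026) and -0.48 (adjusted p = 0.041) in the same comparisons, the decarboxylase gene Ddc had -0.75 in the second (adjusted p = 0.047), and the vesicle transporter gene Slc18a1 had 0.44 in the first (adjusted p = 0.028). With slide as a fixed block none of the 6 genes passed in limma in either comparison (3 and 2 at an unadjusted p under 0.05).

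**Figure D4:**
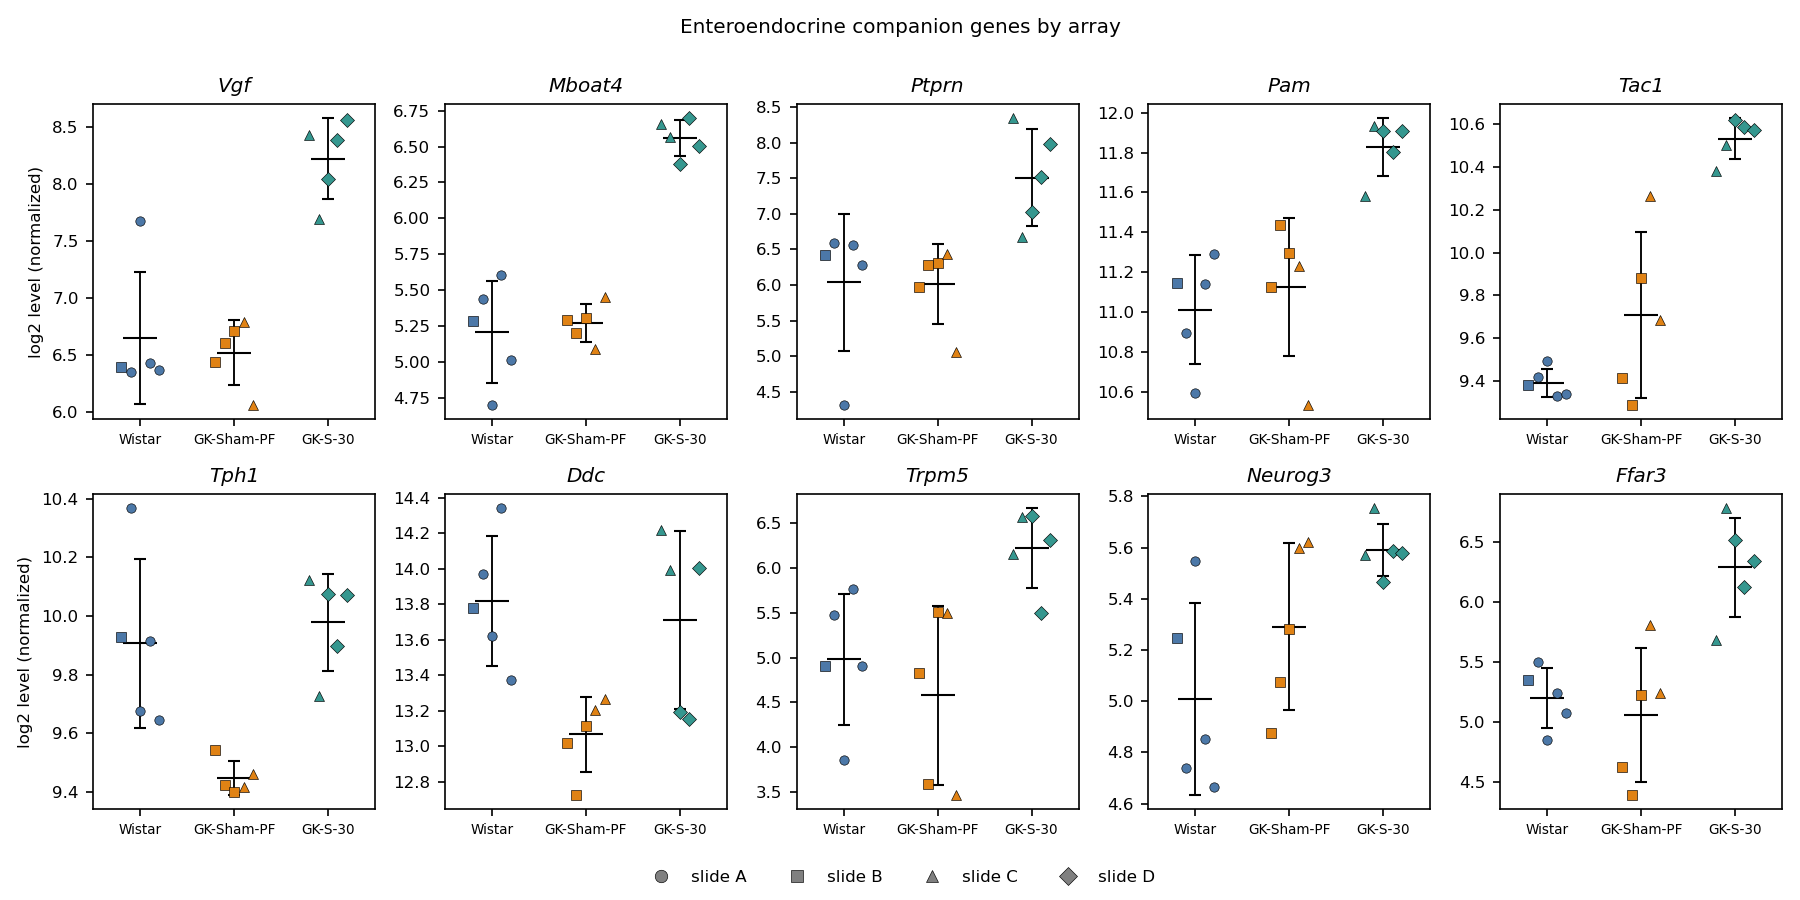
The normalized log2 level of 10 genes from the granule, serotonin, transcription factor, sensor and further peptide lists is plotted for each array, with a bar at the mean, whiskers of 1 SD (n = 5) and symbols for slides, on a separate axis range for each gene. Vgf, Mboat4, Ptprn, Pam and Tac1 are highest in GK-S-30 rats without overlap, and Tph1 is lowest in GK-Sham-PF rats.

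Among 18 transcription factors of enteroendocrine cells, 10 could be tested, and none of these passed by limma between GK-S-30 rats and the GK-Sham-PF group (1 at an unadjusted p under 0.05, 0 by the Tukey comparison). Neurog3, the factor that commits progenitors to the endocrine fate, was higher in GK-S-30 than in Wistar rats by 0.58 (adjusted p = 0.024), with a difference of 0.05 within slide C from GK-Sham-PF rats, and Foxa2 was lower (-0.31, adjusted p = 0.040). Insm1, Foxa1 and Prox1 were not well above background on any array. Of the nutrient and bile acid sensors 8 of 15 were tested. The channel gene Trpm5 and the short-chain fatty acid receptor gene Ffar3 were higher in the GK-S-30 than in the GK-Sham-PF group, by 1.64 (adjusted p = 0.027) and 1.23 (adjusted p = 0.0065). Neither of them passed with slide as a fixed block (adjusted p = 0.23 and 0.34), nor did Neurog3 and Foxa2 against Wistar rats (0.91 and 0.30). Gpbar1, the membrane bile acid receptor, was well above background on all 5 Wistar arrays, on 3 arrays of the GK-Sham-PF group and on 0 of the GK-S-30 group. Its mean levels were 4.23, 3.84 and 3.56 in that order. It could be tested only through the Wistar group, where it was highest, so these levels are a description. Wistar and GK-S-30 arrays overlapped (lowest Wistar array 3.88, highest GK-S-30 array 3.96).

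Of 20 genes for hormone receptors and peptide-cutting enzymes 12 were tested, and none passed by limma between GK-S-30 rats and the GK-Sham-PF group (3 at an unadjusted p under 0.05, 1 by the Tukey comparison) or between the GK-Sham-PF group and Wistar rats (2 and 0). Against Wistar rats, Dpp4, whose product inactivates GLP-1 and Gip, was higher in GK-S-30 rats by 0.35 (adjusted p = 0.0100), and the receptor genes Sstr5 (-0.65, adjusted p = 0.0035) and Glp2r (-0.58, adjusted p = 0.046) were lower. Of 10 tested genes for other gut peptides, Tac1, which encodes substance P and is also a neuron gene, was higher in the GK-S-30 than in the GK-Sham-PF group by 0.82 (adjusted p = 0.0026) and the others did not pass. Vip was higher in both GK groups than in Wistar rats (0.71 in GK-Sham-PF rats, adjusted p = 0.024, and 0.83 in GK-S-30 rats, adjusted p = 0.0037). With slide as a fixed block the call of Tac1 (adjusted p = 0.28), both calls of Vip (0.49 and 0.42) and those of Dpp4, Sstr5 and Glp2r (0.51, 0.55 and 0.48) were lost.

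In whole tissue, fewer cells of a type and less RNA per cell cannot be told apart, and other cell types moved with the groups. Smooth muscle markers had 4 of 8 genes higher in the GK-S-30 than in the GK-Sham-PF group. In that comparison 5.16% of all tested genes were higher and 4.49% lower. The summed smooth muscle signal was 86982 to 113209 in GK-S-30, 24943 to 52949 in GK-Sham-PF and 27157 to 47686 in Wistar rats. The summed signal of 12 enteric neuron markers was 1919 to 2537, 2385 to 3406 and 2366 to 2918 in the same order, with 1 of 9 tested markers, Prph, lower than in GK-Sham-PF rats (-0.61, adjusted p = 0.018). For 10 epithelial markers it was 573249 to 668847, 503104 to 626973 and 493363 to 610701, with Krt18 and Krt19 higher in the GK-S-30 than in the GK-Sham-PF group. The calls of Prph and Krt19 held with slide as a fixed block (adjusted p = 0.035 and 0.040) and that of Krt18 did not (0.24). A sum of linear signal is carried mostly by the brightest genes of its list. The part of these cell type differences in the hormone results was not tested.

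As stomach and pancreas also make some of these hormones, their markers were examined too. Of 8 gastric markers, Pgc, Atp4b and Tff1 were well above background on all 15 arrays, Muc5ac on 10, Gkn1 on 9, Gkn2 on 2, Atp4a on 1 and Cblif (intrinsic factor) on 0. The first 3 could be tested and none passed in any comparison by limma (1 at an unadjusted p under 0.05, against Wistar rats, and 0 by the Tukey comparison). The summed gastric signal was 831 to 1034 in GK-S-30, 861 to 1116 in GK-Sham-PF and 910 to 1451 in Wistar rats. Most of that sum was Pgc (mean log2 level 9.83, next Tff1 at 4.64). Of 4 islet markers on the array, the insulin genes Ins1 and Ins2 were well above background on all 15 arrays, Iapp on 13 and Slc30a8 on 0, and the summed signal was 120 to 182, 125 to 200 and 155 to 226 in that order. Iapp was lower in GK-Sham-PF than in Wistar rats (-1.09), and Ins2 was lower in GK-S-30 than in Wistar rats (-0.47, adjusted p = 0.0036). Iapp was well above background on 3 GK-Sham-PF arrays. It could be tested only through the other groups, where it was higher, so its difference is a description.

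Of 8 markers of pancreatic acinar cells, which make digestive enzymes, Cela1, Ctrb1 and Cel were well above background on all 15 arrays, Amy2a3 on 14, Prss1 on 10, Cpa1 on 1, and Cpb1 and Pnlip on 0. Their summed signal was 3862 to 5167 in GK-S-30, 4308 to 6159 in GK-Sham-PF and 3460 to 5062 in Wistar rats. The amylase gene Amy2a3 was higher than in Wistar rats by 4.12 in GK-Sham-PF rats and by 2.34 in GK-S-30 rats. It was well above background on 4 Wistar arrays and on all arrays of both GK groups. Amy2a3 could be tested only through the latter, where it was higher, so these differences are a description. The trypsinogen gene Prss1 was well above background on 1 Wistar, 4 GK-Sham-PF and all 5 GK-S-30 arrays, with mean levels of 3.11, 4.00 and 5.71. Prss1 could be tested only through the GK-S-30 group, where it was highest, so its difference of 2.60 from Wistar rats is a description. The chymotrypsinogen gene Ctrb1 was lower in GK-S-30 rats, by differences of -0.92 from the GK-Sham-PF group (adjusted p = 0.011) and -1.06 from Wistar rats (adjusted p = 0.0014). With slide as a fixed block none of the islet or acinar markers passed in limma in any comparison (1 islet and 2 acinar tests at an unadjusted p under 0.05). The part of pancreatic or gastric transcripts in the hormone results was not tested.

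Proximal intestine markers (6 tested) gave no call by limma, with 1 gene at an unadjusted p under 0.05 between GK-S-30 rats and the GK-Sham-PF group, by limma and by the Tukey comparison. Among 6 tested distal markers the bile acid transporter gene Slc10a2 had a mean level of 7.91 in GK-S-30 rats, against 4.48 in the GK-Sham-PF group and 6.89 in Wistar rats. It was higher by 3.43 in GK-S-30 rats than in the GK-Sham-PF group (adjusted p = 9.4e-06) and by 1.02 than in Wistar rats (adjusted p = 0.019), and lower in GK-Sham-PF than in Wistar rats (-2.41, adjusted p = 5.9e-05). Fabp6 was higher in GK-S-30 rats by 1.71 and 2.08 than in the GK-Sham-PF and the Wistar group (adjusted p = 0.020 and 0.0021). Against Wistar rats Mep1b (1.06) and Slc51b (0.65) were also higher in GK-S-30 rats and Cyp4f1 was lower (-0.41, adjusted p = 0.0090). With slide as a fixed block, the call of Slc10a2 in GK-S-30 rats against the GK-Sham-PF group held (adjusted p = 0.00054). That against Wistar rats also passed (0.036), but these groups shared no slide. For Wistar rats the fit joins slide C (4.16, GK-S-30 minus GK-Sham-PF) to slide B (-1.67, GK-Sham-PF minus its 1 Wistar array). The Slc10a2 call between GK-Sham-PF and Wistar rats (0.071) and those of Fabp6 (0.16 and 0.20), Mep1b (0.34), Slc51b (0.55) and Cyp4f1 (0.82) did not hold.

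**Figure D5:**
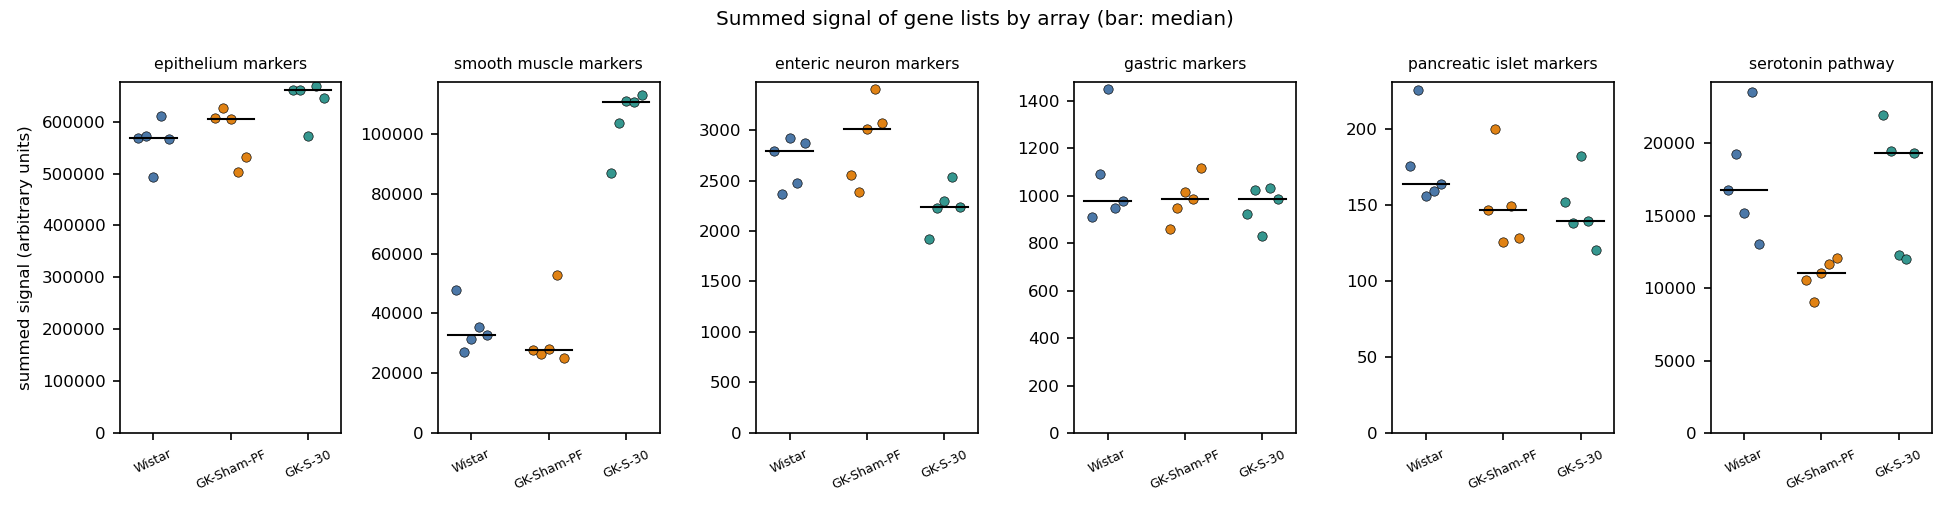
The linear normalized signal summed over the genes of 6 lists is plotted for each array in the 3 groups, with a bar at the median (n = 5) and axes that start at 0. The smooth muscle sums of all 5 GK-S-30 arrays lie above those of all other arrays, gastric and islet sums overlap between groups, and the serotonin sums of all 5 GK-Sham-PF arrays lie below those of all 5 Wistar arrays. The serotonin sum is mostly Ddc (mean log2 level 13.53, next Tph1 at 9.78) and the gastric sum mostly Pgc (9.83, next Tff1 at 4.64).

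The genes whose levels went most closely with each hormone gene over the 15 arrays were sought by Pearson correlation, which is given as a description because arrays of a group, slide and brightness share these. Npdc1 was nearest to Sct (r = 0.92, or 0.72 after the group means were removed), C10h1orf35 to Sst (0.94 and 0.88), Kcnt2 to Gip (0.92 and 0.91), Itpka to Ghrl (0.90 and 0.75), Vav3 to Pyy (0.87 and 0.75), Csta to Cck (0.86 and 0.80) and Tmigd1 to Gcg (0.84 and 0.68). Cutal was nearest to Chgb (0.83 and 0.50), Rhpn1 to Chga (0.82 and 0.62) and Swt1 to Nts (0.81 and 0.80). Among the members themselves, with group means removed, Cck and Ghrl went together most (r = 0.80 over 15 arrays), ahead of Gip and Sst (0.73) and Gip and Sct (0.71), and Cck and Nts went most in opposite directions (-0.53). For Cck and Ghrl, GK-Sham-PF replicate 5 was the highest GK-Sham-PF array for both. Gip, Sst and Sct also had their extremes in common. Each peaked at replicate 3 among Wistar rats and at replicate 5 among GK-Sham-PF rats, both of them dim. Each was lowest at replicate 1 among GK-S-30 rats. How far the correlations of Gip with Sst and Sct rest on these extremes was not tested.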

How the data were processed

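RNA of 15 rats was hybridized with 1 dye to Agilent whole rat genome arrays. The deposited scanner files hold intensity values per spot that the authors extracted with Feature Extraction, version 10.7 per the labels and 10.7.3.1 per the file headers, where the processed signal is background-subtracted. The deposited matrix holds log2 values that the authors quantile-normalized, and it differs from the values used here by 0.0026 at most on average. The 10 members and all gene lists were chosen with earlier results of these data known.

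Control spots and spots flagged as non-uniform or population outliers were dropped, spots of a probe were averaged, and the processed signal was log2-transformed and quantile-normalized over the 15 arrays. Probes take gene names from their accession or symbol through RefSeq (GRCr8), which named 21178 of 41012 probes, with 1325 more under the name in the file. A probe was tested if well above background on all arrays of at least 1 group (17028 probes), and the brightest probe stands for a gene (13023 genes). Groups come from the labels, and all 15 arrays entered 1 limma fit (limma 3.58.1, R 4.3.3) with Benjamini-Hochberg adjustment over all genes of a comparison and a threshold of 0.05. A script tested on simulated arrays computed it. Nothing says more of the replicates than that each is 1 rat. The number of arrays limits the precision. Named genes are the members, up to 5 called genes of each list with the largest difference, and up to 3 nearest genes of each member. Alternatives were another scaling, background correction and filter, the matrix, other probe choices, slide or replicate number as a block, array weights, the methods' Tukey comparison, the 2 groups alone and each array left out. Promoter sequences are from RefSeq (GRCr8). Probe positions are those of the file (rn4). An item of the gene lists is not reported here and is left out of the counts over those lists.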

Additional observations from a re-analysis of the deposited data

Results flagged for a closer look

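In a group of 5 arrays, an array was taken to stand apart when its gap to the next one, divided by the range of the group, was above 0.71 (Dixon's 95% value). Of 147 groups of arrays examined over the members and the named genes of the lists, 10 had such an array, where chance alone gives about 5%. Among the members, Gip in GK-S-30 replicate 1 read 14.02, below the next array at 14.63, and without it the difference from GK-Sham-PF rats was -0.15 in place of -0.28. Sst in GK-Sham-PF replicate 5 read 12.32, above the next at 11.99, and Gcg in Wistar replicate 4 read 12.80, below the next at 13.13. Without that Wistar array the Gcg difference of GK-S-30 from Wistar rats was -0.041 in place of 0.035.

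Among the companion genes, Vgf in Wistar replicate 3 read 7.68 (next 6.43), and Ptprn in the same array read 4.32 (next 6.29). Maoa in GK-S-30 replicate 2 read 10.51 (next 9.89), and Foxa2 in GK-Sham-PF replicate 4 read 8.56 (next 8.28). Of the marker genes, Actg2 in GK-Sham-PF replicate 4 read 14.09 (next 13.07), Tagln in GK-S-30 replicate 1 read 13.58 (next 13.85) and Fabp6 in GK-Sham-PF replicate 1 read 9.32 (next 7.64). Why these arrays stood apart was not tested.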

How the results depend on the processing

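In each triple below the values are calls for GK-S-30 rats against the GK-Sham-PF group, GK-Sham-PF against Wistar and GK-S-30 against Wistar rats, and the 10 members gave 4, 1 and 5. They gave 0, 0 and 0 with slide as a fixed block, and 0, 0 and 2 with the methods' Tukey comparison adjusted over genes. Leaving out each array in turn gave 1 to 4, 0 to 2 and 3 to 5. GK-S-30 rats against the GK-Sham-PF group gave 2 calls without a filter on dim probes, 2 with the dimmest tested probe of a gene and 1 with only the 2 groups compared. GK-Sham-PF against Wistar gave 3 with normexp, 3 with slide as a random block, 3 with the unadjusted Tukey comparison, 2 with only the 2 groups compared, 5 with array weights and 2 without both dim arrays. GK-S-30 against Wistar gave 3 without a filter, 3 without both dim arrays and 3 with the dimmest probe. The last 2 of these settings were chosen after the data were seen. Over all tested genes the counts were 1257, 1150 and 3412. They were 285, 179 and 237 with slide as a fixed block. For the first 2 comparisons they were 504 and 708 with the adjusted Tukey comparison, 2120 and 1915 with the unadjusted one, and 1998 and 2475 with array weights.

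With the replicate number as a block, the members gave 1 call (Sct), 1 (Pyy) and 4. Same-numbered arrays correlated at -0.27 to 0.18 after group means were removed, so that the numbers pair nothing, and at most 1 of the 5 numbers in a comparison was the best match of its own.

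Differences that changed sign had no call in that same comparison, apart from those of Neurog3, Tph1 and Pcsk2. With slide as a fixed block, GK-S-30 minus GK-Sham-PF became -0.14 for Ghrl and -0.54 for Pyy, GK-Sham-PF minus Wistar 0.043 for Gip, and GK-S-30 minus Wistar -0.21 for Chgb, -0.20 for Gcg, -0.12 for Neurog3 and -0.28 for Nts. With the dimmest probe, GK-Sham-PF minus Wistar became 0.015 for Gip and 0.036 for Tph1, and GK-S-30 minus Wistar 0.029 for Pcsk2. Leaving out each array gave ranges across 0 for GK-S-30 minus Wistar (Nts -0.17 to 0.26, Gcg -0.041 to 0.13), GK-S-30 minus GK-Sham-PF (Nts -0.36 to 0.043, Ghrl -0.078 to 0.41, Pyy -0.13 to 0.36) and GK-Sham-PF minus Wistar (Gip -0.10 to 0.034, Chga -0.10 to 0.021, Sct -0.0011 to 0.20). The cause was not tested. The calls of Sct in both comparisons with GK-S-30, and of Sst and Ghrl in GK-S-30 against Wistar rats, held in 29, 30, 29 and 29 of 31 alternatives.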
